A study of Mus musculus with 8 samples.

Results

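The 10 genes studied here encode immune checkpoint and co-signalling molecules that a tumour cell can display or release, and their transcripts were measured in B16F10, a mouse melanoma line that grows in C57BL/6 mice. They, and the gene lists set beside them below, were chosen by name with earlier results of these data known. The 10 are Cd274 (PD-L1), Pdcd1lg2 (PD-L2), Cd80, Cd276 (B7-H3), Cd47, Lgals9 (galectin-9), Lgals3 (galectin-3), Tnfrsf14 (HVEM), Pvr (CD155) and Ulbp1. All 10 were in the table of 45556 named genes, and 8 of them passed the filter on low counts that left 13500 genes for testing. Pdcd1lg2 and Cd80 did not pass, with 4 and 6 counts in all libraries together. The cells carried either the vector pLKO, the control, or a short hairpin against Drg2 (shDRG2). DRG2 is a GTP-binding protein. Either line was left unstimulated or was stimulated over 24 hours with 5 ng/ml of recombinant mouse interferon-gamma (IFN-γ), which made 4 groups of 2 bulk RNA libraries each. The labels do not say whether the shDRG2 line is 1 clone, how many hairpins were used, or whether replicates were separate cultures, so p-values measure only the spread between these libraries. The series is about the place of DRG2 in bringing PD-L1 to the surface of melanoma cells. These libraries measure mRNA and do not measure surface protein.

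PD-L1 and PD-L2 are B7-family ligands of PD-1, an inhibitory receptor of activated T cells, and tumour cells that display PD-L1 can dampen a T-cell attack. IFN-γ released by T cells and NK cells acts through the kinases JAK1 and JAK2 and induces the transcription factor IRF1, and PD-L1 is a classical target of this route. The other genes act on other receptors. CD80 binds CD28 and CTLA-4, CD47 gives phagocytes a "do not eat me" signal through SIRPα, galectins bind sugars on receptors such as TIM-3, HVEM engages BTLA, CD160 and LIGHT, CD155 engages TIGIT, CD96 and DNAM-1, and ULBP1 (also called MULT1) is a ligand of the activating NK-cell receptor NKG2D.

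The genes that the results below turn on are those that changed with IFN-γ in both lines, and the DNA before their start is shown for that reason. RefSeq (GRCm38.p6) gave 250 bases before a start for 9 of the 10 genes, and Pvr had no entry. Shown are the longest runs of those 250 bases that lie outside annotated untranslated regions, 5′ to 3′ on the strand of the gene. For Tnfrsf14 a short run around a motif is shown in place of that run. Capitals mark a match to GAAANNGAA, a core of the interferon-stimulated response element that IRF proteins bind, searched on both strands, and here read on the opposite strand.
Cd274: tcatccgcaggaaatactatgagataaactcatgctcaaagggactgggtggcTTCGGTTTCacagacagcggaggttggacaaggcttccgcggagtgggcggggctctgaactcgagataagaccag
Tnfrsf14: tattttttctTTCATTTTCacttttcctt
Lgals9: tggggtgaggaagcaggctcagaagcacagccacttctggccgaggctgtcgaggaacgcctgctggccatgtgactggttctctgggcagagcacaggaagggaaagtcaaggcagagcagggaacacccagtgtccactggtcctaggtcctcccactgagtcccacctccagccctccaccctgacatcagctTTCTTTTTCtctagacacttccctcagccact
Cd47: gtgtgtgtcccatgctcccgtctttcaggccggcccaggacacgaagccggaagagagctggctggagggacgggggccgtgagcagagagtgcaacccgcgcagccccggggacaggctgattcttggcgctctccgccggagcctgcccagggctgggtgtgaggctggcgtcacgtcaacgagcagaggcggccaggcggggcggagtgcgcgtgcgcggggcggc
Ulbp1: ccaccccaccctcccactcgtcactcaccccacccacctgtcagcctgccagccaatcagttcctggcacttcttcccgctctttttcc
The runs are chr19:29367309-29367437 on the plus strand, chr4:154928122-154928150 on the minus strand, chr11:78984947-78985174 on the minus strand, chr16:49855404-49855632 on the plus strand and chr10:7473639-7473727 on the minus strand. The matches lie 76 to 68 bases before the start of Cd274, 63 to 55 before that of Tnfrsf14 and 54 to 46 before that of Lgals9. These starts are RefSeq's. For Tnfrsf14, Cd47, Ulbp1 and Lgals9 they lie inside the longer gene spans of GENCODE given with the values, by 161 bases for Ulbp1 and 22 for Lgals9. The Tnfrsf14 run lies in an annotated untranslated region of such a longer transcript. Among all 32851 RefSeq promoters of this length 7.13% hold GAAANNGAA. TTCNNNGAA, the palindromic core of the gamma-activated site, occurs in 7.02% of them and in 0 of the 9 genes with an entry. Cd47 and Ulbp1 hold neither motif in their 250 bases, which says only that these letters are not in these windows. The 3 genes with a match were all among those that rose with IFN-γ in both lines, and this is a description of 9 windows. An exon of Plgrkt, on the opposite strand, covers 185 of the 250 bases before Cd274.

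Levels are given as CPM, the count per 1000000 counts of a library, scaled by TMM, a factor per library that evens out composition. Library totals ran from 25422758 to 36654519 estimated counts, and the log CPM of replicates correlated across genes at 0.992 to 0.993. Drg2 was at 76.3 and 68.6 CPM in the unstimulated pLKO libraries and at 8.68 and 9.34 in the shDRG2 ones, and with IFN-γ at 72.3 and 64.3 against 6.46 and 7.66. Its level was thus 8.06-fold lower without IFN-γ (edgeR quasi-likelihood test, Benjamini-Hochberg adjusted p = 1.512e-06) and 9.63-fold lower with it (adjusted p = 7.729e-07). The 10 melanocytic markers, led by Gpnmb, summed to 16420 to 21450 CPM per library. The 12 immune markers summed to 0.504 to 1.41 CPM, with Cd3e, Itgam, Itgax, Adgre1 and Cd4 at 0 in all 4 groups. The 5 epithelial markers summed to at most 0.688 CPM. The 6 fibroblast markers summed to 15.8 to 19.5 CPM without IFN-γ and to 4.20 to 5.74 with it. Most of this was Col1a2, at 16.5 CPM in pLKO and 18.0 in shDRG2 cells without IFN-γ and 4.66 and 3.93 with it. Of the others, Col1a1 went from 27 to 24 counts in pLKO cells and from 7 to 24 in shDRG2 cells. Lum went from 0 to 7 and from 1 to 8. The 5 endothelial markers summed to 1.497 to 2.16 CPM in unstimulated pLKO cells, 5.04 to 5.97 in unstimulated shDRG2 cells and 0.457 to 0.700 with IFN-γ. Vwf led them, at 1.32 CPM in unstimulated pLKO and 4.96 in unstimulated shDRG2 cells, where Pecam1 was at 0.511 and 0.493. Cdh5 and Kdr had 0 counts in all 4 groups. Of the 10 melanocytic markers IFN-γ lowered 5 and raised 1 in pLKO cells and lowered 7 in shDRG2 cells. Over all 13500 tested genes, 28.1% in pLKO cells and 31.4% in shDRG2 cells changed at an adjusted p under 0.05. Those lower with IFN-γ numbered 1714 and 2051. The part of the cell type markers in the results was not tested. In bulk RNA, fewer cells with a transcript and less of it per cell cannot be told apart.

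IFN-γ raised 5 of the 8 tested genes in pLKO cells and 4 in shDRG2 cells, and lowered Ulbp1 in both. In pLKO cells 6 of the 8 tested genes were called changed at an adjusted p under 0.05, Cd274, Cd47, Tnfrsf14, Lgals9 and Lgals3 higher and Ulbp1 lower. Over all tested genes 28.1% were called in that comparison. Tnfrsf14 was tested only through its stimulated libraries, so its rise was a condition of its being counted here. In shDRG2 cells 5 of the 8 were called, the same 4 genes without Lgals3 higher and Ulbp1 again lower, where 31.4% of all tested genes were called. The median log2 fold change of the 8 was 1.31 in pLKO cells and 0.55 in shDRG2 cells, against 0.01 and 0.00 over all tested genes. Without Lgals3, which was at or under the detection floor in shDRG2 cells, the order of the lines turns. The median of the other 7 was then 0.62 in pLKO cells and 0.97 in shDRG2 cells. Both are the values of Lgals9 alone, and its 2 responses did not differ by the test (adjusted p = 0.9999, edgeR quasi-likelihood test). Cd276 and Pvr were called in neither line. The 2 comparisons share no library.

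**Figure D1:**
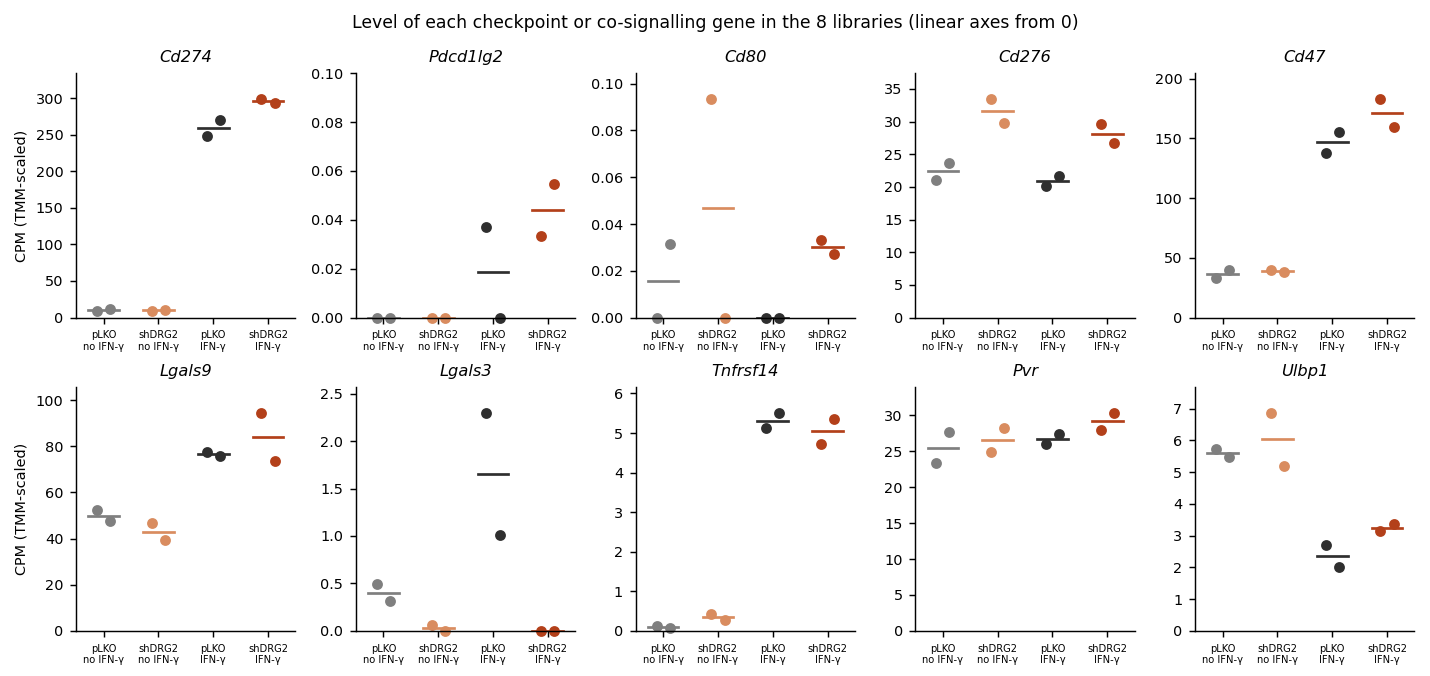
Level of each of the 10 genes (CPM, TMM-scaled, linear axes from 0) in the 2 libraries of each group; points are libraries and bars are group means. Cd274 libraries lie at or under 11.2 CPM without IFN-γ and at or above 248 CPM with it, and Lgals3 is at 0 counts in both shDRG2 libraries given IFN-γ.

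Cd274 lies on chromosome 19 (29367455 to 29388095, plus strand, GRCm38) with 7 exon blocks. Unstimulated libraries had 8.86 and 11.2 CPM in pLKO cells and 9.64 and 10.4 CPM in shDRG2 cells. Stimulation brought it to 248 and 270 CPM in pLKO cells and to 298 and 293 CPM in shDRG2 cells. Every stimulated library stood far above every unstimulated one. In pLKO cells the rise was 25.8-fold (log2 4.69 with SE 0.108, adjusted p = 6.245e-10). In shDRG2 cells it was 29.6-fold (log2 4.89 with SE 0.109, adjusted p = 4.986e-10). Among 13500 genes, 201 had a larger log2 fold change in pLKO cells and 212 in shDRG2 cells. By mean CPM, Cd274 moved from percentile 34.4 of the tested genes to 94.7 in pLKO cells, and from 34.3 to 95.5 in shDRG2 cells.

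The Cd274 transcript did not pass the test in either comparison of shDRG2 with pLKO cells. Without IFN-γ the shDRG2 libraries lay between the pLKO ones, with a log2 difference of -0.00 (95% interval -0.27 to 0.27, adjusted p = 1, edgeR quasi-likelihood test). With IFN-γ both shDRG2 libraries lay above both pLKO ones, at 296 ± 3.7 against 259 ± 15.6 CPM (mean ± SD, n = 2). That difference was 0.19 on the log2 scale (95% interval -0.02 to 0.40, SE 0.0951) and did not pass the test, with an adjusted p of 0.4795. The 2 responses to IFN-γ differed by 0.19 (95% interval -0.15 to 0.53, adjusted p = 0.9999). A difference of the Cd274 transcript by a factor of 2, which is 1 on the log2 scale, lay outside all 3 intervals. Of the exon bases of Cd274, 14.1% are overlapped by the antisense gene AC119228.1, and strand use in the counting is not stated, so reads of the pair there cannot be told apart.

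Among the 5 genes whose pattern over the 8 libraries was most like that of Cd274 were Trim12a, Xaf1, Tapbpl and Ube2l6. Likeness was measured as the root-mean-square difference of log2 CPM (with a prior count of 2), each gene centred on its own mean. Trim12a differed by 0.169, with a Pearson r of 0.998 over the 8 libraries. Xaf1 differed by 0.181 (r = 0.998), Tapbpl, a peptide editor of MHC class I, by 0.186 (r = 0.998) and Ube2l6, the conjugating enzyme of ISG15, by 0.196 (r = 0.997). In all, 64 genes lay within 0.5 of Cd274. The libraries fall into stimulated and unstimulated ones, so these r describe that contrast.

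Pdcd1lg2 and Cd80 were too scarce for their response to be measured. Pdcd1lg2, which follows Cd274 on chromosome 19 (29410919 to 29471161), had 0 counts in all 4 unstimulated libraries, 1 and 0 in pLKO cells with IFN-γ and 1 and 2 in shDRG2 cells with IFN-γ. The floor of 3 counts over a group corresponds to 0.0451 to 0.0518 CPM, so PD-L2 mRNA was at or under the detection limit throughout, and no fold is given. Cd80 on chromosome 16 had 0 and 1 counts in pLKO cells, 3 and 0 in shDRG2 cells, 0 and 0 in pLKO cells with IFN-γ and 1 and 1 in shDRG2 cells with IFN-γ. All 4 groups of Cd80 were at or under the floor too.

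Cd276 encodes B7-H3, a B7-family protein whose receptor is not settled, and it lies on chromosome 9 (58524298 to 58555437, minus strand). It was at 21.1 and 23.7 CPM in pLKO cells and 33.4 and 29.8 in shDRG2 cells. The stimulated libraries had 20.1 and 21.7 CPM in pLKO cells and 29.6 and 26.7 in shDRG2 cells. All 4 shDRG2 libraries stood above all 4 pLKO libraries. The knockdown difference was 1.41-fold without IFN-γ (log2 0.50, SE 0.104, adjusted p = 0.05258) and 1.35-fold with it (log2 0.43, SE 0.105, adjusted p = 0.08672), so neither passed 0.05. Without IFN-γ the difference passed with DESeq2 (adjusted p = 0.017). IFN-γ itself gave a log2 difference of -0.10 (95% interval -0.33 to 0.14) in pLKO cells and -0.17 (95% interval -0.40 to 0.06) in shDRG2 cells, and neither passed. Of its exon bases 11.4% are overlapped by Gm10657 on the other strand.

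With the knockdown taken as an average over both treatments, a comparison added after the data had been seen, 2 of the 8 tested genes were called, Cd276 higher and Lgals3 lower. Over all tested genes 5.92% were called in that comparison. Cd276 was 1.38-fold higher in it (log2 0.46, SE 0.0740, 95% interval 0.30 to 0.63, adjusted p = 0.005718).

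Within each treatment the knockdown called at most 1 of the 8 tested genes. Without IFN-γ 0 of the 8 were called, where 1.23% of all tested genes were. At an unadjusted p under 0.05 there were 3 (Tnfrsf14, Lgals3 and Cd276), and DESeq2 called 1 (Cd276). With IFN-γ 1 of the 8 was called, Lgals3, where 1.67% of all tested genes were. The median log2 difference of the 8 was 0.08 without IFN-γ and 0.16 with it, against 0.01 and 0.00 over all tested genes, and 0.09 and 0.19 over the 7 without Lgals3. The difference between the 2 IFN-γ responses was called for 0 of the 8, with 1 (Tnfrsf14) at an unadjusted p under 0.05 and 0 by DESeq2. Over all genes 0.00741% were called for it, which is 1 gene. The 2 knockdown comparisons share no library with each other, and the difference between responses uses all 8.

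**Figure D2:**
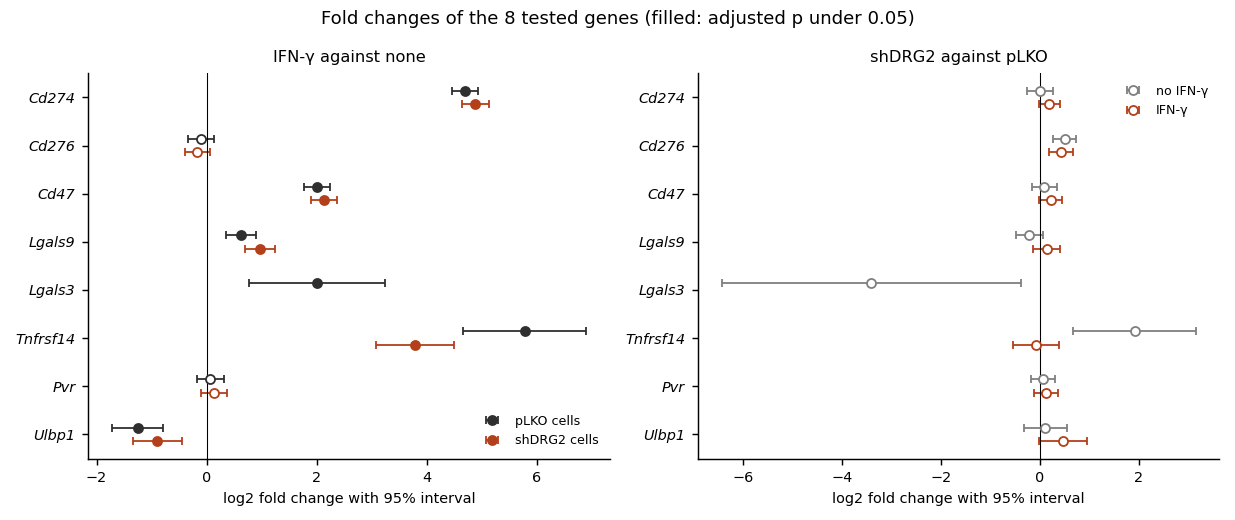
Log2 fold changes with 95% intervals of the 8 tested genes for IFN-γ against none (left) and shDRG2 against pLKO (right); filled points have an adjusted p under 0.05 (edgeR quasi-likelihood test), and Lgals3 is not drawn where a group had 0 counts. Cd274, Cd47, Tnfrsf14 and Lgals9 lie above 0 and Ulbp1 below 0 with IFN-γ in both lines, and no point drawn on the right is filled.

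Cd47 lies on chromosome 16 (49800533 to 49915010, plus strand). It was at 33.2 and 40.0 CPM in unstimulated pLKO cells and at 39.6 and 38.4 in shDRG2 cells. Stimulated pLKO cells had 138 and 156 CPM and stimulated shDRG2 cells 183 and 159. The stimulated libraries did not overlap the unstimulated ones. The rise was 4.02-fold in pLKO cells (adjusted p = 3.81e-07) and 4.38-fold in shDRG2 cells (adjusted p = 2.122e-07). The knockdown gave a log2 difference of 0.09 (95% interval -0.16 to 0.34) without IFN-γ and 0.22 (95% interval -0.02 to 0.45) with it, and neither passed. Cd47 was the only one of the 10 genes whose deposited counts lay more than 0.0015 from a whole number, and they did so in 8 of 8 libraries. Sirpa, the CD47 receptor, is itself expressed in these cells and fell with IFN-γ by 0.67 on the log2 scale in pLKO cells and by 0.81 in shDRG2 cells.

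Of the galectins, Lgals9 lies on chromosome 11 (78962974 to 78984946, minus strand). It was at 52.2 and 47.4 CPM in unstimulated pLKO cells and at 46.6 and 39.4 in shDRG2 cells. The stimulated values were 77.5 and 75.6 CPM in pLKO cells and 94.5 and 73.7 in shDRG2 cells. Stimulated and unstimulated libraries did not overlap, but the lines did overlap with IFN-γ. In pLKO cells the rise was 1.54-fold (log2 0.62 with SE 0.122, adjusted p = 0.003674), and in shDRG2 cells 1.95-fold (log2 0.97 with SE 0.123, adjusted p = 0.0001917). The difference between these responses was 0.35 (95% interval -0.04 to 0.73, adjusted p = 0.9999). The knockdown differences, -0.21 without and 0.14 with IFN-γ on the log2 scale, did not pass.

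Lgals3 was the only one of the 8 genes called in a knockdown comparison within 1 treatment, and it was scarce. Galectin-3 binds β-galactosides on many glycoproteins, and the gene lies on chromosome 14 (47367751 to 47386160, plus strand). Its counts were 16 and 10 in pLKO cells, 2 and 0 in shDRG2 cells, 62 and 33 in pLKO cells with IFN-γ, and 0 and 0 in shDRG2 cells with IFN-γ. All 4 pLKO libraries stood above all 4 shDRG2 ones, and Lgals3 passed the filter on low counts only through the pLKO libraries, so a difference between the lines was a condition of its being tested. With IFN-γ, 95 counts stood against 0, which is at least 35.2-fold lower in shDRG2 cells against the floor of 3 counts over the group (adjusted p = 0.007456). Without IFN-γ, 26 counts stood against 2, a level 11.7-fold lower (95% counting interval 2.92 to 101, adjusted p = 0.1631). Within pLKO cells Lgals3 rose with IFN-γ, with a log2 fold change of 2.01 and an SE of 0.547 (adjusted p = 0.02019). In shDRG2 cells both groups were at or under the floor, so no fold is given and the responses of the lines cannot be compared.

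The Lgals3 calls did not hold with every library left out. The knockdown call with IFN-γ was lost without shDRG2 replicate 1 with IFN-γ (adjusted p = 0.069) or without replicate 2 of that group (adjusted p = 0.0647). Both hold 0 counts, so 95 counts against 0 still stood. Without IFN-γ the fitted log2 difference of -3.40 was -6.65 without shDRG2 replicate 1, which leaves that group at 0 counts, and -2.61 without replicate 2. The rise in pLKO cells was lost without unstimulated pLKO replicate 1 (log2 2.37, adjusted p = 0.0663) or replicate 2 (log2 1.73, adjusted p = 0.124), and without stimulated pLKO replicate 1 (log2 1.33, adjusted p = 0.15). Macrophages express galectin-3, and the immune markers were given above as near 0. Cd68, the most abundant of them, summed to 43 counts in pLKO cells against 15 in shDRG2 cells, and to 57 against 33 with IFN-γ. Other macrophage markers differed from Cd68. Csf1r had 3 counts in pLKO cells against 7 in shDRG2 cells, and 5 against 3 with IFN-γ. Lyz2 had 14 against 13, and 15 against 8 with IFN-γ. Itgam and Adgre1 had 0 counts in every group. The part of the immune markers in the Lgals3 difference was not tested.

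The genes around Lgals3 were lower in shDRG2 cells too, by less. The 6 nearest tested genes, Wdhd1, Socs4, Mapk1ip1l, Dlgap5, Fbxo34 and Atg14, had log2 differences from -0.44 to -0.14 without IFN-γ and from -0.53 to -0.17 with it. Wdhd1 (-0.43 and -0.53) and Mapk1ip1l (-0.43 and -0.46) were called in both treatments. On chromosome 14 as a whole, 436 genes were tested. Of these, 2 were called higher and 28 lower without IFN-γ, which is 6.88%, and 3 higher and 42 lower with it, which is 10.3%. Over all tested genes the shares called were 1.23% and 1.67%, and on the chromosomes of the other 7 tested genes 0.77% to 2.21%. The median log2 difference of the chromosome was -0.28 without IFN-γ and -0.275 with it. The median over all genes was 0.01 or 0.00, and over the chromosomes of the other 7 tested genes it ran from -0.04 to 0.06. Whether the lower level along chromosome 14 has a part in the Lgals3 difference was not tested.

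**Figure D3:**
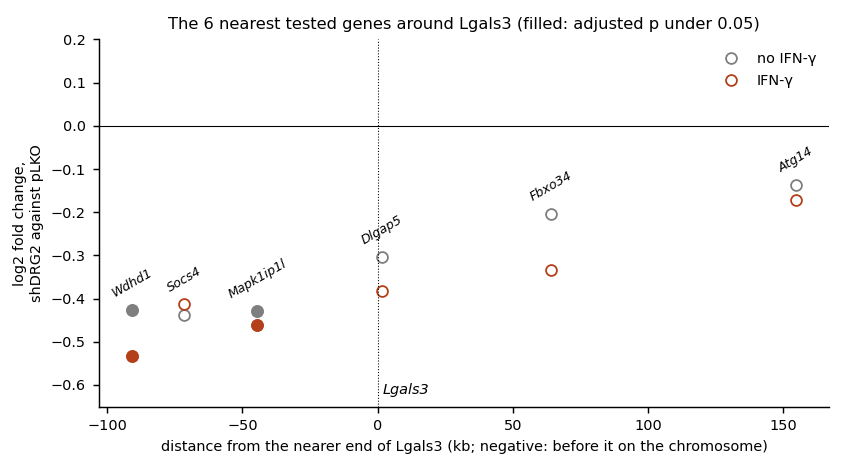
Log2 difference between shDRG2 and pLKO cells for the 6 nearest tested genes around Lgals3, against their distance from the nearer end of Lgals3 in kb; grey is without and red with IFN-γ, and filled points have an adjusted p under 0.05. All 12 points lie below 0, between -0.53 and -0.14.

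Tnfrsf14 encodes HVEM, the one TNF-receptor family protein among the 10, and lies on chromosome 4 (154921933 to 154928563, minus strand). Its counts were 4 and 2 in unstimulated pLKO cells and 14 and 7 in shDRG2 cells. With IFN-γ they were 138 and 181 in pLKO cells and 142 and 196 in shDRG2 cells. The gene thus went from a few counts per library to 4.73 to 5.51 CPM in all 4 stimulated libraries, where the lines overlapped. It passed the filter on low counts only through the stimulated libraries, so a rise with IFN-γ was a condition of its being tested. In pLKO cells the rise was 55.0-fold (log2 5.78 with SE 0.501, adjusted p = 7.231e-07), and in shDRG2 cells 13.9-fold (log2 3.79 with SE 0.318, adjusted p = 3.737e-06). Without IFN-γ both shDRG2 libraries stood above both pLKO ones, 21 counts against 6 (log2 1.91, SE 0.555, unadjusted p = 0.003331, adjusted p = 0.1113). The responses differed by -1.99 on the log2 scale (95% interval -3.31 to -0.67, unadjusted p = 0.004424), and after adjustment over all genes the p was 0.9999. With IFN-γ the knockdown difference was -0.07 (95% interval -0.54 to 0.39).

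Pvr, on chromosome 7 (19903578 to 19921160, minus strand), passed in none of the comparisons. It was at 23.3 and 27.7 CPM in pLKO cells and at 24.9 and 28.3 in shDRG2 cells, and with IFN-γ at 26.0 and 27.4 against 28.02 and 30.4. The 4 log2 differences lay between 0.06 and 0.14, and their 95% intervals between -0.18 and 0.38. A change of Pvr by a log2 value of 0.5 lay outside them.

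Ulbp1 was the one gene of the 8 that fell with IFN-γ. It lies on chromosome 10 (7440362 to 7473638, minus strand). It was at 5.71 and 5.47 CPM in unstimulated pLKO cells and at 6.87 and 5.19 in shDRG2 cells. After stimulation 2.71 and 2.01 CPM were left in pLKO cells and 3.13 and 3.36 in shDRG2 cells. Stimulated and unstimulated libraries did not overlap. The level was 2.38-fold lower in pLKO cells (log2 -1.25, SE 0.210, adjusted p = 0.001341) and 1.86-fold lower in shDRG2 cells (log2 -0.90, SE 0.202, adjusted p = 0.006782). The call in shDRG2 cells was lost without shDRG2 replicate 1 of the unstimulated group (log2 -0.68, adjusted p = 0.0683) or of the stimulated group (log2 -0.85, adjusted p = 0.0511). Among 13500 genes, 290 had a lower log2 fold change in pLKO cells and 668 in shDRG2 cells. With IFN-γ both shDRG2 libraries stood above both pLKO ones (log2 0.47, 95% interval -0.01 to 0.95, adjusted p = 0.4282), which did not pass.

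Set against each other per length, the genes changed order with IFN-γ. In unstimulated pLKO cells the mean CPM per kilobase of exon was 23.3 ± 1.6 for Lgals9 (SD, n = 2), the highest. Cd276 (6.12 ± 0.51), Cd47 (5.83 ± 0.77) and Pvr (4.17 ± 0.50) followed, and Cd276 and Cd47 did not differ beyond their spread. Below these, Cd274 was at 2.77 ± 0.45, above Ulbp1 (0.832), Lgals3 (0.216) and Tnfrsf14 (0.0643). With IFN-γ, Cd274 was the highest in both lines, at 71.4 ± 4.3 CPM per kilobase in pLKO cells and 81.6 ± 1.0 in shDRG2 cells. Lgals9 followed at 35.8 and 39.4 and Cd47 at 23.4 and 27.2, while Tnfrsf14 reached 3.696 and 3.51. The place of Pvr depends on the length used: by its longest transcript it stood at 8.78 in unstimulated pLKO cells, above Cd47 at 6.97 and Cd276 at 6.21.

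**Figure D4:**
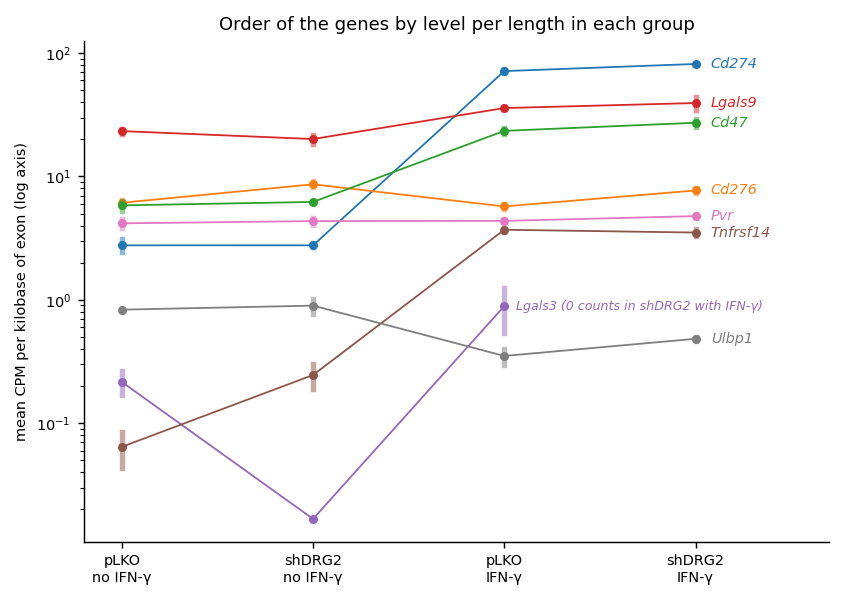
Mean CPM per kilobase of exon (log axis) of the 8 tested genes in the 4 groups; thick bars span the 2 libraries where both have counts, and lines join the means of a gene. Cd274 goes from 2.77 to 71.4 in pLKO cells and is the highest of the 8 in both stimulated groups.

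A list of 38 other checkpoint and co-signalling genes was set beside these 10. All 38 were in the table, 16 were tested, and IFN-γ raised 5 and lowered 1 in pLKO cells and raised 5 and lowered 3 in shDRG2 cells. Over all tested genes the share called was 28.1% and 31.4%. H2-T23, which encodes Qa-1 that engages NKG2A, was at 0.703 and 1.03 CPM in unstimulated pLKO cells and at 261 and 294 with IFN-γ, a log2 fold change of 8.32 in pLKO cells and 7.54 in shDRG2 cells. Clec2d, a ligand of an inhibitory NK-cell receptor, rose by 8.46 and 7.38 on that scale from 2 and 3 counts in pLKO cells. Tnfsf10, the death ligand TRAIL, rose by 7.64 and 7.98 from 3 and 1 counts. Ido1, a tryptophan-degrading enzyme, was called higher in both lines, from 2 and 0 counts to 37 and 30 in pLKO cells and from 2 and 2 to 39 and 48 in shDRG2 cells. Clec2d, Tnfsf10 and Ido1 passed the filter on low counts only through the stimulated libraries. For them a rise with IFN-γ was thus a condition of being tested. Igsf11, a ligand of VISTA, rose by 1.27 and 1.46.

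Other genes of that list fell. Nectin-3, listed as Pvrl3, fell by 0.27 in either line, and Ceacam1 (-2.65) and Hmgb1 (-0.33) were called lower in shDRG2 cells. In pLKO cells these 2 had log2 values of -1.60 and -0.26 that did not pass, and the differences between lines, -1.04 and -0.07, did not pass either. Ceacam1 passed the filter on low counts only through unstimulated libraries, so a fall with IFN-γ was a condition of its being tested. In shDRG2 cells its counts summed to 23 without and 4 with IFN-γ (95% interval of the log2 change -4.87 to -0.42). The knockdown called 0 of the 16 without IFN-γ (2 at an unadjusted p under 0.05, 1 by DESeq2) and 0 with it (3 at an unadjusted p under 0.05, 0 by DESeq2). Of all tested genes 1.23% and 1.67% were called there. Averaged over both treatments, a comparison added after the data had been seen, the knockdown called 1 of the 16, Igsf11. Its level was lower by a log2 value of -0.74 (adjusted p = 0.04934, edgeR quasi-likelihood test). The share over all tested genes was 5.92% in that comparison. The median log2 fold change of the 16 with IFN-γ was 0.30 in pLKO cells and 0.06 in shDRG2 cells.

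Most receptors of these ligands were at or near 0 in the culture. Of 13 receptor genes listed, 12 were in the table and 4 were tested. Pdcd1, Ctla4, Tigit, Cd226, Cd96 and Cd160 had 0 counts in all 4 groups. Havcr2, which encodes TIM-3, a receptor of galectin-9, was at 7.61 and 8.38 CPM in pLKO cells and 13.0 and 15.2 in shDRG2 cells. Without IFN-γ it was 1.76-fold higher with the knockdown (log2 0.81, SE 0.143, adjusted p = 0.02801, edgeR quasi-likelihood test). Of the 4 tested receptors it was the 1 called there, where 1.23% of all tested genes were called. With IFN-γ the knockdown called 0 of the 4, beside 1.67% of all tested genes. Havcr2 fell with IFN-γ by 1.28 in pLKO cells and by 1.37 in shDRG2 cells on the log2 scale. Stimulated libraries had 3.12 and 3.44 CPM in pLKO cells and 4.96 and 5.85 in shDRG2 cells, a log2 difference of 0.72 that did not pass (adjusted p = 0.05949). Klrk1, the NKG2D receptor gene, had 0 counts in all 4 unstimulated libraries and 10 to 14 in each stimulated one.

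Of 13 genes of IFN-γ signalling, all tested, IFN-γ raised 11 and lowered 1, Ifngr2, in either line, beside 28.1% (pLKO) and 31.4% (shDRG2) of all tested genes called. Irf1, the transcription factor named above, rose by 5.66 and 5.87 on the log2 scale. The knockdown called 0 of the 13 without IFN-γ (1 at an unadjusted p under 0.05, 0 by DESeq2) and 0 with it (3 at an unadjusted p under 0.05, 0 by DESeq2). Irf1 had a log2 difference of 0.33 between stimulated shDRG2 and pLKO cells (95% interval 0.06 to 0.59, adjusted p = 0.272). The difference of Cd274 there was 0.19 (95% interval -0.02 to 0.40), and neither gene passed. A link between the 2 differences was not tested. Around Cd274, 3 of the 6 nearest tested genes were called changed by IFN-γ in either line and 0 of 6 by the knockdown in either treatment. The shares over all genes were 28.1% and 31.4% for IFN-γ and 1.23% and 1.67% for the knockdown. Plgrkt, which starts 65 bases from Cd274 and is named because its exon covers the window shown above, rose by 0.85 in pLKO cells and 0.55 in shDRG2 cells.

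**Figure D5:**
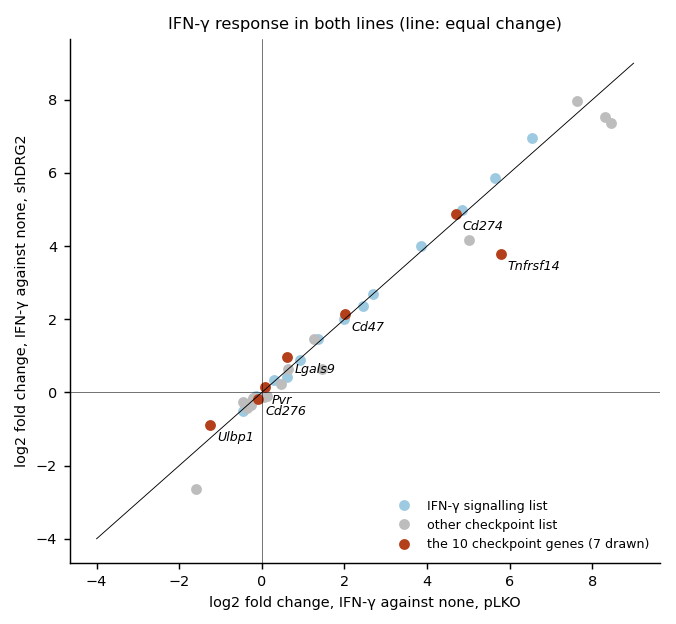
Log2 fold change with IFN-γ in shDRG2 cells against that in pLKO cells for 7 of the 10 checkpoint genes (red), the tested genes of the other checkpoint list (grey) and of the IFN-γ signalling list (blue); the line marks equal change, and Lgals3 is left out because a group had 0 counts. Cd274 (4.69 and 4.89) lies near the line, and Tnfrsf14 (5.78 and 3.79) lies below it.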

How the data were processed

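The authors deposited a table of estimated counts (expected counts) per gene for 8 libraries, not normalised between libraries. STAR, Salmon 1.5.2 and the mm10 genome are named in the submitters' processing notes, with no role or order. How transcripts were summed to genes is not given in the sources used here. Whole numbers (to within 0.0015) made up 86.4% of values above 0. The 27 entries with date-like names (0.204% to 0.212% of counts) were left out. The labels' protocols name both 100-base and 150-base paired reads, and do not state strandedness.

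Rounded counts were analysed with edgeR 4.0.16 (R 4.3.3): filterByExpr over the 4 groups, TMM factors (0.973 to 1.04), and 1 quasi-likelihood fit of 4 group coefficients to all 8 libraries, with 4 residual and 6.11 prior degrees of freedom. F tests were two-sided with Benjamini-Hochberg adjustment over 13500 genes at 0.05, and a gene is called when it passes. Intervals are 95% and use the total degrees of freedom. Folds against 0 counts use a floor of 3 counts over the group, and counting intervals cover counting error only. The test was checked on simulated counts. Alternatives were other scalings (RLE, upper quartile, library size only), no filter, DESeq2 1.42.0, a replicate block, only the groups compared, and leaving out each library. Positions and exon lengths are from GENCODE M21 (GRCm38), which matched 41827 names (91.8%). Nectins and Vsir were matched by older symbols.

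All 10 genes are named. Of the other checkpoint list, called genes are named, up to 10 by size. Also named are Irf1 from the signalling list, genes among the 5 nearest to Cd274 in pattern, and neighbours, but only for a gene called in a knockdown comparison. Receptor genes, some cell type markers and Ifngr2 are named outside these rules, with their values already seen. Some genes that these rules name are not reported here. The members and lists were chosen with earlier results of these data known.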

Additional observations from a re-analysis of the deposited data

How the results depend on the processing

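The IFN-γ calls of Cd274, Cd47, Tnfrsf14 and Lgals9 in both lines and of Ulbp1 in pLKO cells kept direction and call under every alternative run, leave-one-out included. Counts of the 8 tested genes called in the knockdown moved most. Without IFN-γ (0 called) they were 3 with no filter, 1 with DESeq2, and 2 under the replicate block or with both treatments averaged. With IFN-γ (1 called) they were 2 with no filter, under the replicate block or averaged, and 0 to 1 with 1 library left out. IFN-γ calls were 5 to 6 in pLKO and 4 to 5 in shDRG2 cells with 1 library left out. Without a filter, Tnfrsf14 (adjusted p = 0.0395), Lgals3 (0.00158) and Cd276 (0.000948) passed in the knockdown without IFN-γ, and Cd276 (0.00689) with it. The cause was not tested.

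Over all genes, knockdown calls without IFN-γ went from 166 to 678 with no filter, 312 with DESeq2 and 674 under the block, and from 27 (without shDRG2 replicate 1) to 167 with 1 library left out. With IFN-γ they went from 226 to 654 with no filter, 677 under the block and 124 with only the groups compared, and from 44 (without stimulated shDRG2 replicate 1) to 202. IFN-γ calls ran from 2482 to 3752 in pLKO cells and from 2726 to 4297 in shDRG2 cells. The difference between responses had 1 call, 58 with no filter, 9 with DESeq2, 3 under the block and 1 to 2 with 1 library left out. Replicate numbers were shared by all groups, and replicate differences of 2 groups correlated across genes at 0.107 to 0.274. With 2 numbers this does not show pairing, so the block is an alternative only. Under it, Lgals3 (adjusted p = 0.0305) and Cd276 (0.0156) passed in the knockdown without IFN-γ, and Cd276 (0.0311) and Lgals3 with it.

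Values near 0 changed sign. The knockdown difference of Cd274 without IFN-γ was 0.005 with no filter and 0.002 under the block, and -0.17 to 0.17 with 1 library left out. Leaving out 1 library also gave -0.045 to 0.24 for Cd47, -0.066 to 0.19 for Pvr and -0.11 to 0.30 for Ulbp1 without IFN-γ, -0.17 to 0.013 for Tnfrsf14 and -0.053 to 0.30 for Lgals9 with it, and -0.055 to 0.19 for Pvr with IFN-γ in pLKO cells. For the difference between responses the ranges were -0.016 to 0.27 for Cd47, -0.16 to 0.028 for Cd276 and -0.058 to 0.20 for Pvr. By the longest transcript, levels per kilobase in unstimulated pLKO cells moved to 31.4 for Lgals9 and 0.939 for Ulbp1. With 2 libraries a group, spread between replicates limits Lgals3, Tnfrsf14, Pdcd1lg2 and Cd80 most, since their counts are few.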
